A study of Mus musculus with 5 samples.

Results

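The genes described here are the receptors for estrogen (*Esr1*), progesterone (*Pgr*) and prolactin (*Prlr*) together with 4 genes that act beside or below them in the mammary epithelium: *Cited1*, *Greb1*, *Tnfsf11* and *Tnfrsf11a*. They were chosen by symbol, and all 7 were found among the 24319 genes of a table of expression values from 5 RNA-seq libraries, each made from luminal cells sorted out of the mouse mammary gland. By their labels the mice were of a mixed strain background, replicates 1, 2 and 3 being wild type while replicates 4 and 5 carry the label *Brca1* knockout. The study instead describes the luminal cells as BRCA1-deficient, and its mouse models include MMTV-Cre; Brca1 fl/fl, in which Cre recombinase, expressed from the mouse mammary tumor virus promoter, removes part of *Brca1* in mammary epithelium. Other mice of the study also carry a *Trp53* mutation, and the genotype labels do not give the *Trp53* status of these libraries. Live cells were sorted as CD24 high and CD29 low, a gate that does not ask whether a cell had recombined *Brca1*, so unrecombined cells may be present in any library. Mammary glands for cell preparation came from female mice of 3 to 4 months, either virgin or in mid-pregnancy, but which of these stages gave which library is not stated, and the extraction text in the labels speaks of mammary tumors. Nothing says that the libraries came from separate mice, so p-values measure the spread between these libraries, which may be technical.

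Estrogen receptor alpha and the progesterone receptor are nuclear receptors that bind their steroid and act on transcription, and in the mammary gland both are found in a subset of luminal cells, the hormone-sensing cells. These cells pass the hormone signal to their neighbours through secreted factors, among them amphiregulin, WNT4 and RANKL, and the neighbours, which lack the steroid receptors, carry the receptor RANK. The prolactin receptor sits at the cell surface and signals through JAK2 and STAT5, on which alveolar development and milk protein expression depend.

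*Esr1*, *Pgr*, *Prlr*, *Cited1* and *Tnfsf11* were all at their highest in a single library, wild type replicate 3, while *Tnfrsf11a*, which encodes RANK, was at its lowest there. *Pgr* in that library was 37.9-fold above the highest of the other 4 libraries, *Prlr* was 14.4-fold above, *Cited1* was 11.9-fold above and *Esr1* was 3.19-fold above. For *Prlr* and *Cited1* the gap was at least 2 on the log2(FPKM + 1) scale, which replicate 3 reached in 1.82% of all genes tested. Against the labels, *Cited1* and *Tnfsf11* were higher in each wild type library than in either *Brca1* knockout library (5.77% of genes tested were, and 17.5% lay the other way), as was *Pgr*, which reached the minimum level for the test only through replicate 3, and none of the members passed the test. In bulk samples a lower level can come from fewer cells of a type or from less RNA in each cell, and these cannot be told apart.

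The stretches of DNA before the start of the members' transcripts are shown because *Pgr*, *Prlr* and *Cited1* moved together in replicate 3 and because *Cited1* and *Tnfsf11* differed in the same direction between the labels. RefSeq promoters of GRCm38.p6, the mm10 genome, matched all 7 members with 13 windows of 250 bases before a transcription start, out of 32851 windows for all genes. One window for each of these 4 genes is printed, chosen among those without annotated exon and, for *Prlr*, as the single one of its 3 windows with a match, read on the strand of the gene, 5′ to 3′. Capitals mark matches on either strand to the letters of a STAT5 element (TTCNNNGAA), a forkhead motif (TGTTTAC) or a TATA box (TATAAA).
*Prlr*, chr15:10223656-10223905, plus strand: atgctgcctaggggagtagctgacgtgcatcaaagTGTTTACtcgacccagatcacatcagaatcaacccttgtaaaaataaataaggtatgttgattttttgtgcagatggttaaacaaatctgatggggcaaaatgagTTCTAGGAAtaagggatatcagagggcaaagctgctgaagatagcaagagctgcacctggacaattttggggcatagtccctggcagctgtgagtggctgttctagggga
*Pgr*, chr9:8899583-8899832, plus strand: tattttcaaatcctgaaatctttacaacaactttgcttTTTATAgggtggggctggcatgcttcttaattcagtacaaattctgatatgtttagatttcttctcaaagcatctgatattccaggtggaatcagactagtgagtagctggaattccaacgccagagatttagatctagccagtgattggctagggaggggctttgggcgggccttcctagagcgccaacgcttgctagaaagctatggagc
*Cited1*, chrX:102252182-102252431, minus strand: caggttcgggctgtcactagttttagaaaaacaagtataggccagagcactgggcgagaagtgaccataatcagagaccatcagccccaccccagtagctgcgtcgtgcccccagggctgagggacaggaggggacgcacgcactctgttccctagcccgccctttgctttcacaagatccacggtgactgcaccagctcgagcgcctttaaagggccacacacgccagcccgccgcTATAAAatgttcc
*Tnfsf11*, chr14:78308044-78308293, minus strand: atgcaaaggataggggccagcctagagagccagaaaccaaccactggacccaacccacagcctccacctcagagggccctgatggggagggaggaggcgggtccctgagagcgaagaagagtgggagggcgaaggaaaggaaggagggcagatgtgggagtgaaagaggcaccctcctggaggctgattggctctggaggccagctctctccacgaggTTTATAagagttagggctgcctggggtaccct

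The *Prlr* window holds TTCTAGGAA, which fits the STAT5 letters, at -110 to -102 (bases counted from the start, negative before it), and a forkhead match at -215 to -209. The same letters TTCTAGGAA lie at -188 to -180 from a start of *Esr1*, in the window chr10:4709908-4710157. These were 2 of the 13 member windows with a STAT5 match, and 7.02% of all windows had one. The forkhead letters, which FOXA1 and related factors are known to bind, were in 1 member window and in 3.17% of all windows. TATAAA on either strand was in 4 member windows and in 12.4% of all windows. It lies at -13 to -8 in the *Cited1* window shown and, as TTTATA on the strand printed, at -32 to -27 in that of *Tnfsf11* and at -212 to -207 in that of *Pgr*. Neither the full estrogen response element (GGTCA and TGACC with 3 bases of any kind between them) nor the element of progesterone and glucocorticoid receptors (GNACA and TGTNC, spaced likewise) was in any of the 13 windows, and these were in 0.0639% and 0.387% of all windows. The estrogen half-site AGGTCA, part of which lies within the full element, was in 2 member windows, 1 of *Cited1* and 1 of *Greb1*, and in 14% of all windows. A match is a description of the letters in the window and does not show binding.

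The deposited unit is FPKM, in which fragment numbers are scaled to the length of the transcript and to the size of the library, so that levels of different genes are compared per length. The table holds no read totals. From the spacing of low values, the libraries were estimated to hold 6200000, 12800000 and 29500000 fragments (replicates 1, 2 and 3) and 6400000 and 21200000 fragments (replicates 4 and 5). The number of genes at 1 FPKM or more was nevertheless close in all libraries, from 10979 to 11336. *Brca1* itself, the targeted gene (ENSMUSG00000017146, chromosome 11, 101488764 to 101551955), stood at 1.30, 1.32 and 0.234 FPKM under the wild type label and at 1.20 and 1.34 FPKM under the knockout label. Its level therefore went against the labels in replicate 3 and did not separate them in the others (log2 fold change 0.27, SE 0.38, adjusted p = 0.94, limma with Benjamini-Hochberg adjustment), though a value over the whole gene cannot show the loss of some exons. Wild type and knockout below therefore stand for the labels only. Replicate 3 stood apart in many genes. It held the highest value for 18.5% of the 11481 genes tested, those whose mean reached 1 FPKM, and the lowest for 51.8% of them. By Dixon's ratio of the gap to the whole range, it stood apart on the high side for *Prlr*, as for 3.16% of genes tested, and for *Pgr*, and on the low side for *Brca1*, as for 7.39%. The comparisons of the members, and part of those of the lists, are therefore also given without it.

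The sorted identity of the libraries was checked against marker genes. *Krt8*, a luminal keratin, lay between 2240 and 3653 FPKM, and *Epcam*, an epithelial adhesion gene, between 570 and 1062 FPKM. *Krt14*, on average the most abundant of 9 basal markers, lay between 3.65 FPKM in replicate 3 and 104 FPKM in replicate 2. Milk protein genes were abundant everywhere. *Csn2*, the beta casein gene, was at 28982, 31978 and 10569 FPKM in replicates 1, 2 and 3 and at 25327 and 28653 FPKM in replicates 4 and 5. The luminal label was thus borne out by its keratins in each library, with a smaller casein share in replicate 3.

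*Esr1* (ENSMUSG00000019768, chromosome 10 of mm10, 4611593 to 5005614, plus strand), which encodes estrogen receptor alpha, had 3.003, 1.22 and 9.57 FPKM in the wild type libraries (replicates 1, 2 and 3, in this order throughout) and 2.83 and 2.25 FPKM in the *Brca1* knockout libraries (replicates 4 and 5). Replicate 3 was highest and replicate 2 lowest, so the wild type libraries enclosed both knockout libraries. The values rest on an estimated 118, 99.2, 1790, 115 and 302 fragments in replicates 1 to 5. Within replicate 3, *Esr1* stood at percentile 79.4 of all genes, against percentiles 55.1 to 63.3 in the other libraries. Even at its highest it was a gene of moderate level.

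*Pgr* (ENSMUSG00000031870, chromosome 9, 8899833 to 8968611, plus strand) encodes the progesterone receptor and is a known target of estrogen receptor alpha. It was at 0.538, 0.714 and 27.1 FPKM in the wild type libraries and at 0.111 and 0.198 FPKM in the knockout libraries. Outside replicate 3 it thus stayed under 1 FPKM, on an estimated 23.0, 63.0, 4.89 and 28.9 fragments in replicates 1, 2, 4 and 5, against 5509 in replicate 3. The ratio of *Pgr* to *Esr1*, in FPKM, was 0.179, 0.584 and 2.83 in the wild type libraries and 0.0392 and 0.0880 in the knockout libraries. In replicate 3 alone, the receptor gene that is the estrogen target was more abundant than the receptor gene that acts on it.

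*Prlr* (ENSMUSG00000005268, chromosome 15, 10177238 to 10349180, plus strand) was the most abundant of the 7 members on average. It was at 6.17, 8.14 and 148 FPKM in the wild type libraries and at 5.61 and 10.3 FPKM in the knockout libraries. Without replicate 3 the remaining wild type values lay between the values of the knockout libraries. The annotation gives *Prlr* 12 transcripts, of which 7 are coding and which include long and short receptor forms. The table has a single value for the gene, so these forms cannot be told apart. Relative to *Esr1*, *Prlr* was at 2.05, 6.66 and 15.4 in the wild type libraries and at 1.98 and 4.57 in the knockout libraries, so the ratio was also highest in replicate 3.

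**Figure D1:**
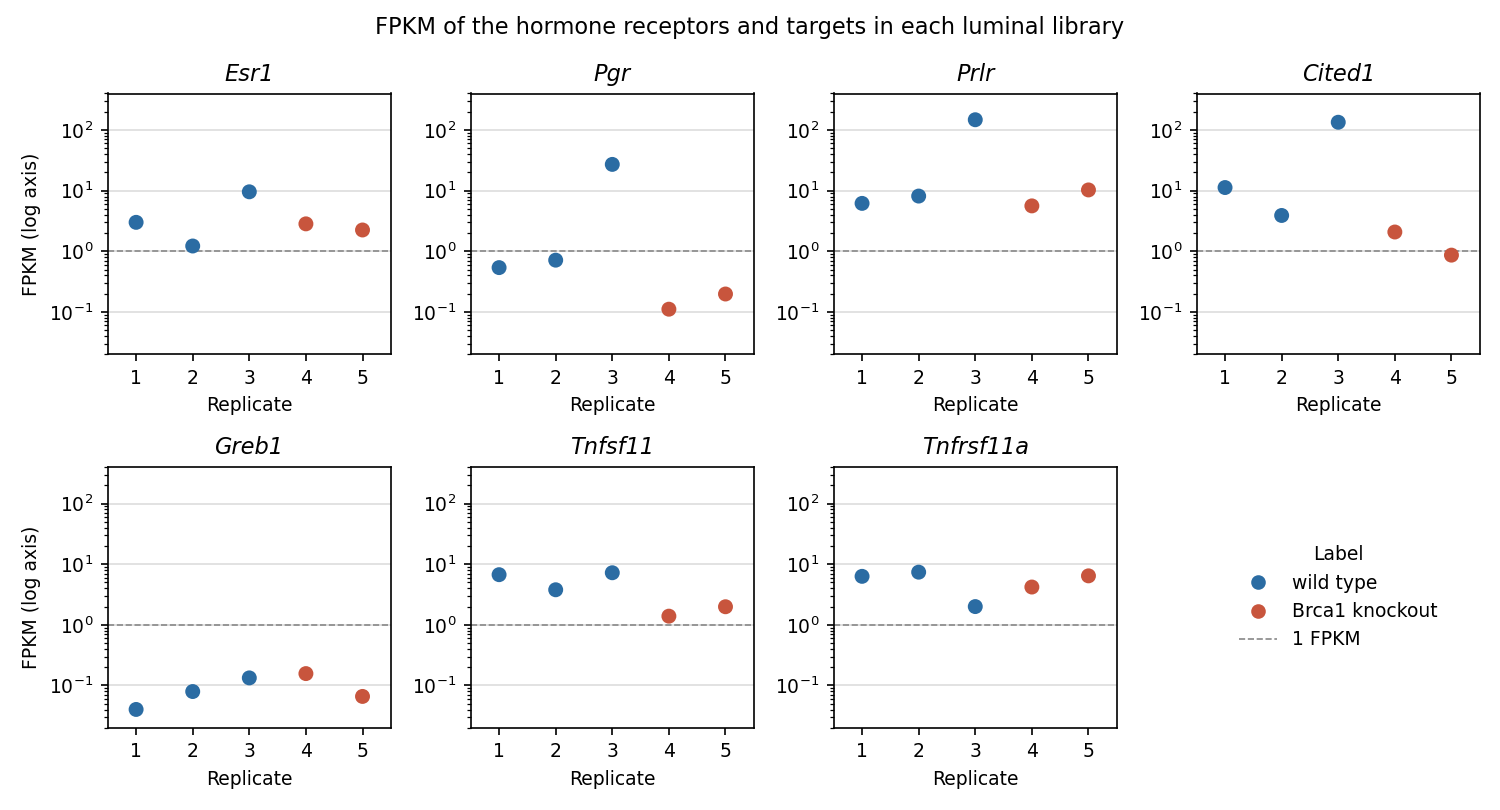
FPKM on a log axis for each of the 7 members, with 1 point per library; blue points are labelled wild type (replicates 1, 2 and 3), red points *Brca1* knockout (replicates 4 and 5), and the dashed line marks 1 FPKM. *Pgr*, *Prlr* and *Cited1* stand far above the other libraries in replicate 3, *Tnfsf11* is lower in both knockout libraries, and *Greb1* stays under 1 FPKM throughout.

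*Cited1* (ENSMUSG00000051159, chromosome X, 102247381 to 102252181, minus strand) encodes a transcriptional coactivator without DNA binding of its own that binds the acetyltransferases CBP and p300 and acts with estrogen receptor alpha. It was at 11.3, 3.90 and 134 FPKM in the wild type libraries and at 2.08 and 0.865 FPKM in the knockout libraries. The groups did not overlap, and replicate 3 was again highest. Outside replicate 3 the estimated number of fragments was small, at 76.1 and 54.4 in replicates 1 and 2 and at 14.5 and 20.0 in replicates 4 and 5. The related coactivator gene *Cited4* was at 214, 148 and 38.2 FPKM in the wild type libraries and at 205 and 221 FPKM in the knockout libraries. *Cited1* exceeded *Cited4* in replicate 3, with a ratio of 3.51, while in the other libraries the ratio lay between 0.00392 and 0.0525.

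*Greb1* (ENSMUSG00000036523, chromosome 12, 16670615 to 16800886, minus strand), an early estrogen target in breast cancer cells whose product binds the estrogen receptor, was close to the floor. It was at 0.0402, 0.0793 and 0.133 FPKM in the wild type libraries and at 0.157 and 0.0659 FPKM in the knockout libraries, which is an estimated 2.01, 8.18 and 31.7 fragments and 8.09 and 11.3 fragments. Its highest value was in replicate 4, with replicate 3 next, and the groups overlapped. The rise of *Pgr* and *Cited1* in replicate 3 had no counterpart of that size in *Greb1*, while at these fragment numbers small differences in *Greb1* were not detectable.

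*Tnfsf11* (ENSMUSG00000022015, chromosome 14, 78277445 to 78308043, minus strand) encodes RANKL, a secreted or membrane-bound factor that relays progesterone to neighbouring cells. It was at 6.71, 3.78 and 7.22 FPKM in the wild type libraries and at 1.39 and 1.98 FPKM in the knockout libraries. All wild type libraries were above both knockout libraries, and replicate 3 was only 1.08-fold above replicate 1. *Tnfsf11* thus did not share the large rise of *Pgr* in replicate 3. The ratio of *Tnfsf11* to *Pgr* was 0.266 in replicate 3, against 5.29 to 12.5 in the other libraries.

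*Tnfrsf11a* (ENSMUSG00000026321, chromosome 1, 105780718 to 105847981, plus strand) encodes RANK, the receptor of RANKL. It was at 6.30, 7.38 and 1.997 FPKM in the wild type libraries and at 4.20 and 6.41 FPKM in the knockout libraries. Replicate 3 was lowest, at 0.476 of the next library, and the groups overlapped. The ratio of the ligand gene to the receptor gene, in FPKM, was 1.06, 0.512 and 3.61 in the wild type libraries and 0.331 and 0.309 in the knockout libraries. *Tnfrsf11b*, which encodes osteoprotegerin, the soluble decoy receptor of RANKL, stayed under 1 FPKM everywhere, at 0.115, 0.193 and 0.551 FPKM in the wild type libraries against 0.454 and 0.403 FPKM.

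On average over the 5 libraries the levels ran, in log2(FPKM + 1), from *Prlr* (3.89 ± 1.88, SD, n = 5) through *Cited1* (3.10 ± 2.44), *Tnfrsf11a* (2.56 ± 0.60), *Tnfsf11* (2.22 ± 0.80), *Esr1* (2.04 ± 0.83) and *Pgr* (1.32 ± 1.97) to *Greb1* (0.13 ± 0.06). Each neighbouring pair in this order differed by less than the larger SD of the pair, between 0.18 and 1.19 on this scale. *Esr1* was above *Pgr* in 4 of 5 libraries, all but replicate 3. Without replicate 3 the order became *Prlr* (3.06 ± 0.35, SD, n = 4), *Tnfrsf11a* (2.80 ± 0.30), *Cited1* (2.11 ± 1.16), *Tnfsf11* (2.01 ± 0.75), *Esr1* (1.70 ± 0.39), *Pgr* (0.45 ± 0.30) and *Greb1* (0.12 ± 0.07). The spread of *Prlr* and *Pgr* thus came mostly from replicate 3, and that of *Tnfsf11* did not.

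The comparison of the labels asked whether the hormone genes differed between libraries labelled wild type and *Brca1* knockout. *Tnfsf11* was lower in the knockout libraries, with a log2 fold change of -1.33 (SE 0.31, 95% interval -2.12 to -0.54) on the log2(FPKM + 1) scale, which understates changes of low genes. Its unadjusted p was 0.0068, and its adjusted p was 0.92 (limma, Benjamini-Hochberg over 11481 genes). On this scale *Cited1* had the largest difference among the members, with a log2 fold change of -3.07 (SE 1.40, 95% interval -6.59 to 0.45, adjusted p = 0.92, limma). It was followed by *Pgr* at -1.86 (SE 1.34, 95% interval -5.24 to 1.51, adjusted p = 0.92, limma). As a ratio of geometric means of FPKM, wild type over knockout, *Pgr* was ahead, at 14.7 against 13.5 for *Cited1*. Because *Pgr* was under 1 FPKM in 4 libraries, it entered the test only through replicate 3. With array weights, which limma estimates from the spread of each library, the log2 fold change was -1.25 for *Cited1*, -0.91 for *Tnfsf11*, -0.65 for *Pgr* and -0.15 for *Prlr*. *Prlr* (-1.31, SE 1.38), *Esr1* (-0.37, SE 0.66) and *Tnfrsf11a* (0.13, SE 0.50) had intervals that spanned 0 widely, with adjusted p between 0.93 and 0.98 in limma.

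None of the 6 members tested was called at an adjusted p under 0.05, where 0% of all genes tested were. Across all genes limma gave 372 genes (3.24%) an unadjusted p under 0.05, and 0.915% of genes had such a p and were lower in the knockout libraries. *Tnfsf11* was the single member among these. The wild type libraries lay above the knockout libraries without overlap for *Cited1* and *Tnfsf11*, as for 5.77% of genes tested, and for *Pgr*, which reached the minimum of 1 FPKM only through the group where it was high and is not counted against that share. No member lay the other way, where 17.5% of genes did. For a single gene an exact permutation test (two-sided, the smaller one-sided p times 2) of 3 libraries against 2 gave p = 0.2 for each of these 3 members, the smallest p this design allows, and p = 0.6 for *Greb1*, which was below the minimum for limma.

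Without replicate 3 the direction held for some members and not for others. *Tnfsf11* had a log2 fold change of -1.18 (95% interval -1.99 to -0.38, unadjusted p = 0.014, adjusted p = 0.70, limma), and *Cited1* one of -1.69 (95% interval -3.10 to -0.28, unadjusted p = 0.028, adjusted p = 0.70, limma). *Esr1* turned to 0.24 (adjusted p = 0.87, limma), *Prlr* to 0.09 (adjusted p = 0.95, limma) and *Tnfrsf11a* to -0.33 (adjusted p = 0.75, limma). *Pgr* was no longer testable, its mean being under 1 FPKM, but the mean FPKM of the wild type libraries was still 4.06-fold that of the knockout libraries. The same ratio was 5.15 for *Cited1* and 3.11 for *Tnfsf11*. *Cited1* and *Tnfsf11* still did not overlap between the labels, as 15.2% of the genes tested in this smaller set with the wild type libraries higher (23.9% the other way), and *Pgr*, below the minimum, did not overlap either. *Tnfsf11* and *Cited1* were the members with an unadjusted p under 0.05, as 6.98% of genes had in either direction, and 2.29% of genes had an unadjusted p under 0.05 and were lower in the knockout libraries.

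**Figure D2:**
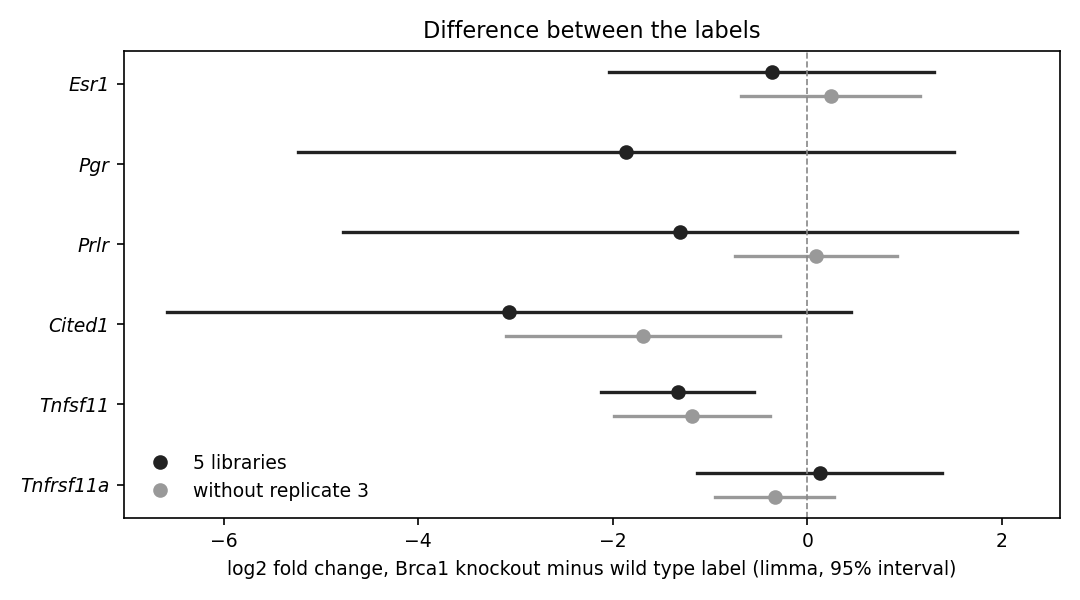
Log2 fold change on the log2(FPKM + 1) scale, *Brca1* knockout minus wild type label, with the 95% interval from limma for the 6 members tested; black points use 5 libraries and grey points leave out replicate 3 (*Pgr* has no grey point because its mean was then under 1 FPKM). *Tnfsf11* keeps nearly the same value in both, at -1.33 and -1.18, while *Esr1*, *Prlr* and *Tnfrsf11a* change sign.

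Genes that mark hormone-sensing luminal cells were compared with the members. All 9 of this list were highest in replicate 3. For *Prom1*, *Tbx3* and *Wnt5a*, which reached the minimum of 1 FPKM only through that library, this was fixed by the filter, and the other 6 stand beside 18.5% of genes tested. *Areg*, which encodes amphiregulin, the growth factor that relays estrogen, was at 13.04, 5.42 and 229 FPKM in the wild type libraries and at 3.58 and 4.15 FPKM in the knockout libraries. *Foxa1*, the pioneer factor of the estrogen receptor, was at 2.01, 1.45 and 33.6 FPKM against 0.896 and 1.73 FPKM. *Prom1*, a surface marker of the hormone-sensing fraction, was at 0.360, 0.938 and 56.7 FPKM against 0 and 0.177 FPKM. The steroid receptor genes and these markers therefore stood high together in 1 library.

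The list median in log2(FPKM + 1) was 2.58, 2.68 and 5.11 in the wild type libraries and 2.19 and 2.37 in the knockout libraries. None of the 9 was called by limma. Because of the same filter, the median log2 fold change over the 9 (-1.25, beside 0.11 over all genes tested) is in part a product of replicate 3. Without replicate 3, the other 6 markers could be tested, 3 of them lower in the knockout libraries, and the median was -0.07. For *Areg* and *Ly6a* the wild type libraries lay above the knockout libraries without overlap, both with replicate 3 (5.77% of genes tested) and without it (15.2%), and so did *Prom1* and *Tbx3*, which were under 1 FPKM without replicate 3. *Wnt4*, the WNT ligand that relays progesterone, was at 9.50, 9.96 and 22.0 FPKM and at 11.4 and 10.6 FPKM, so that without replicate 3 it was slightly higher in the knockout libraries.

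**Figure D3:**
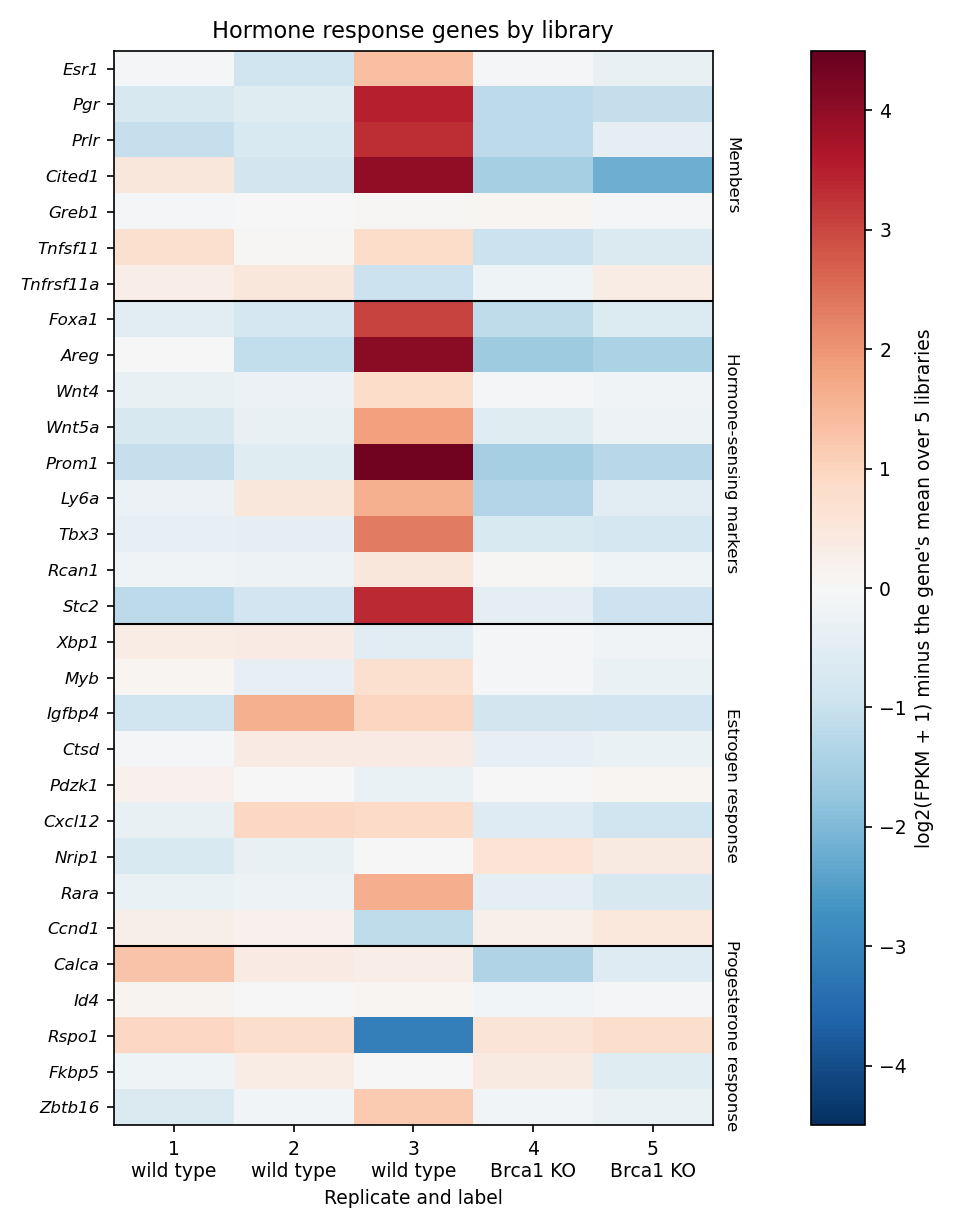
Color gives log2(FPKM + 1) minus the mean of that gene over the 5 libraries, with genes in rows, grouped by list (a gene in several lists is drawn once), and libraries in columns. The column of replicate 3 is red for the members except *Greb1* and *Tnfrsf11a* and for all 9 hormone-sensing markers, and mixed for the estrogen and progesterone response genes.

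The estrogen response list was less uniform. Of 11 genes, 4 were highest in replicate 3 and 3 were lowest there, where 18.5% and 51.8% of genes tested were. *Rara*, the retinoic acid receptor gene, was at 5.29, 5.57 and 23.1 FPKM in the wild type libraries and at 4.82 and 3.73 FPKM in the knockout libraries. *Stc2* was at 4.99, 6.35 and 137 FPKM and at 9.15 and 6.0 FPKM. *Ccnd1*, which encodes cyclin D1, went the other way in replicate 3, at 82.3, 77.8 and 30.2 FPKM against 80.7 and 95.2 FPKM. Of the 10 genes tested 8 were lower in the knockout libraries, beside 3962 of all 11481 genes tested, and 0 were called. The median log2 fold change was -0.74 (0.11 over all genes tested), and between -0.98 and -0.37 under the alternatives, the latter without replicate 3. Among the 8, *Igfbp4* and *Cxcl12* reached the minimum of 1 FPKM only through wild type libraries. For them the filter favoured the direction, so this count and median are in part its product. In *Areg*, *Rara* and *Ctsd* the wild type libraries were higher without overlap (5.77% of genes tested), with an unadjusted p of 0.0495 for *Ctsd* (adjusted p = 0.92, limma). Without replicate 3 the unadjusted p of *Ctsd* was 0.063 (adjusted p = 0.72, limma). The wild type libraries were also higher without overlap in *Cxcl12*, which reached the minimum of 1 FPKM only through them. *Nrip1*, a corepressor that the estrogen receptor induces, lay without overlap the other way, as 17.5% of genes did, at 32.3, 41.6 and 51.8 FPKM against 79.9 and 69.3 FPKM (log2 fold change 0.84, unadjusted p = 0.018, adjusted p = 0.92, limma).

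Among 7 progesterone response genes, 2 were highest in replicate 3 (18.5% of genes tested) and 2 lowest (51.8%). *Calca*, the calcitonin gene, which progesterone induces in the mammary gland, was at 95.4, 50.8 and 47.6 FPKM in the wild type libraries and at 14.6 and 25.5 FPKM in the knockout libraries. Like *Tnfsf11*, it was lower in both knockout libraries without overlap (5.77% of genes tested) and not raised in replicate 3. Its log2 fold change was -1.62 (SE 0.40, unadjusted p = 0.0087, adjusted p = 0.92, limma), and -1.80 without replicate 3. Of genes tested, 0.915% had an unadjusted p under 0.05 and were lower in the knockout libraries. Another gene of the list was also lower there without overlap, but it lay below the minimum level for the test. *Rspo1*, which encodes R-spondin 1, a WNT amplifier, ranged from 117 to 148 FPKM in the other libraries and was at 8.29 FPKM in replicate 3. *Zbtb16*, a transcription factor gene that glucocorticoid and progesterone induce, had 27.1 FPKM in replicate 3, with 6.78 to 10.3 FPKM in the other libraries. Of the 6 genes of the list that were tested, 4 were lower in the knockout libraries, beside 3962 of all 11481 genes tested, and 0 were called. The median log2 fold change was -0.16, which was -0.0097 without replicate 3, -0.34 without replicate 4 and 0.096 without replicate 5.

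Downstream of the prolactin receptor most genes were lowest in replicate 3, as most genes of the table were. Of 11 genes of the prolactin and STAT5 list, 7 were lowest there, beside 51.8% of genes tested, and 2 were highest there, beside 18.5%. *Jak2*, the kinase bound to the receptor, was at 11.2, 13.5 and 21.9 FPKM in the wild type libraries and at 12.99 and 11.2 FPKM in the knockout libraries. *Stat5a* was at 68.1, 43.3 and 35.8 FPKM against 75.0 and 63.1 FPKM, and *Elf5*, the transcription factor of the alveolar lineage, at 338, 258 and 102 FPKM against 244 and 288 FPKM. The library with the most *Prlr* thus had the least *Stat5a*, *Elf5* and *Csn2*. *Wap*, the whey acidic protein gene, was at 1240, 2292 and 181 FPKM against 282 and 794 FPKM. *Stat5b* was the 1 gene of the 11 without overlap between the labels, higher in the knockout libraries as 17.5% of genes tested were, at 31.4, 22.1 and 19.4 FPKM against 36.1 and 33.1 FPKM. Between the labels 7 of the 11 were higher and 4 lower in the knockout libraries, beside 7519 higher of all 11481 genes tested, and 0 were called. The median log2 fold change was 0.33 (-0.025 without replicate 3 and -0.094 with array weights), beside 0.11 over all genes tested.

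The list median of the RANK pathway genes varied little in comparison, between 4.44 and 4.80 in log2(FPKM + 1) over the libraries. Single genes of the list varied more. *Traf6*, an adaptor of RANK signaling, was at 11.4, 8.62 and 10.7 FPKM in the wild type libraries and at 14.1 and 18.5 FPKM in the knockout libraries, and *Relb*, of the NF-kB family, at 35.8, 37.5 and 34.1 FPKM against 38.3 and 49.9 FPKM. These 2 of 10 genes lay higher in the knockout libraries without overlap, a share near the 17.5% of all genes tested. *Nfkb1* was at 24.1, 40.5 and 56.8 FPKM against 26.1 and 29.5 FPKM. Of the 9 genes tested 7 were higher in the knockout libraries, beside 7519 of all 11481 genes tested, and 0 were called. The median log2 fold change was 0.08, beside 0.11 over all genes tested. It turned to -0.016 without replicate 3, to -0.023 with median-of-ratios scaling and to -0.0046 with quantile scaling.

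Other receptors of hormones were set beside the members. *Esr2*, for estrogen receptor beta, lay between 0.0410 and 0.174 FPKM, and *Gper1* between 0.0381 and 0.193 FPKM. The glucocorticoid receptor gene *Nr3c1* was above *Esr1* in each library and above *Pgr* in all but replicate 3, at 18.3, 18.2 and 12.5 FPKM against 21.1 and 22.1 FPKM. *Vdr*, for the vitamin D receptor, lay between 78.9 and 118 FPKM. Of 13 receptors, 6 were highest in replicate 3 (18.5% of genes tested). Of the 10 receptors tested, 8 were higher in the knockout libraries, beside 7519 of all 11481 genes tested, and 0 were called. The median log2 fold change was 0.20, and between 0.048 and 0.22 under the alternatives, beside 0.11 over all genes tested.

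Coregulators of the nuclear receptors lay mostly higher in the knockout libraries, as most genes did, since 7519 of 11481 genes tested were. Of 12 coregulators 11 were higher and 5 did so without overlap, among them *Nrip1*, *Ncor1*, *Crebbp* and *Ep300*, against 17.5% of genes tested. *Ep300*, which encodes the partner p300 of CITED1, was at 9.48, 8.86 and 11.1 FPKM in the wild type libraries and at 12.6 and 14.5 FPKM in the knockout libraries. The median log2 fold change of the list was 0.34, and between 0.21 and 0.47 under the alternatives, and 0 were called.

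Genes with the profile most like each member were taken from the whole table, as the smallest root mean square difference of log2(FPKM + 1) after centring each gene on its own mean over the 5 libraries. For *Pgr* they were *Papln*, *Ctsr* and *Abcc8*, with differences of 0.125 to 0.195. *Papln* was at 1.83, 1.85 and 53.3 FPKM in the wild type libraries and at 1.08 and 1.61 FPKM in the knockout libraries. *Papln* was also among the genes nearest to *Prlr* (0.264), behind *Clca3a2* (0.235) and *Phyh* (0.242). For *Cited1* the nearest genes were *Tph1* (0.384), which encodes the tryptophan hydroxylase of serotonin synthesis, *Areg* (0.437) and *Cdo1* (0.462). *Tph1* was at 7.37, 5.02 and 158 FPKM against 1.00 and 0.516 FPKM, so it shared with *Cited1* both the height of replicate 3 and the lower values of the knockout libraries.

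The genes nearest to *Esr1* were *Garnl3* (0.0515), *Hpn* (0.0597) and *Rsph9* (0.113). Those nearest to *Tnfrsf11a* were *Hnmt* (0.0387), *Srd5a3* (0.0661) and *Faim* (0.0770). For *Tnfsf11* they were *Hyou1* (0.240), *Dmpk* (0.240) and *Kdelr3* (0.258). *Hyou1*, a chaperone gene of the endoplasmic reticulum, was at 45.5, 39.0 and 55.8 FPKM in the wild type libraries and at 22.2 and 24.1 FPKM in the knockout libraries. With 5 libraries and 11481 genes, near matches of this kind are a description of these libraries.

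**Figure D4:**
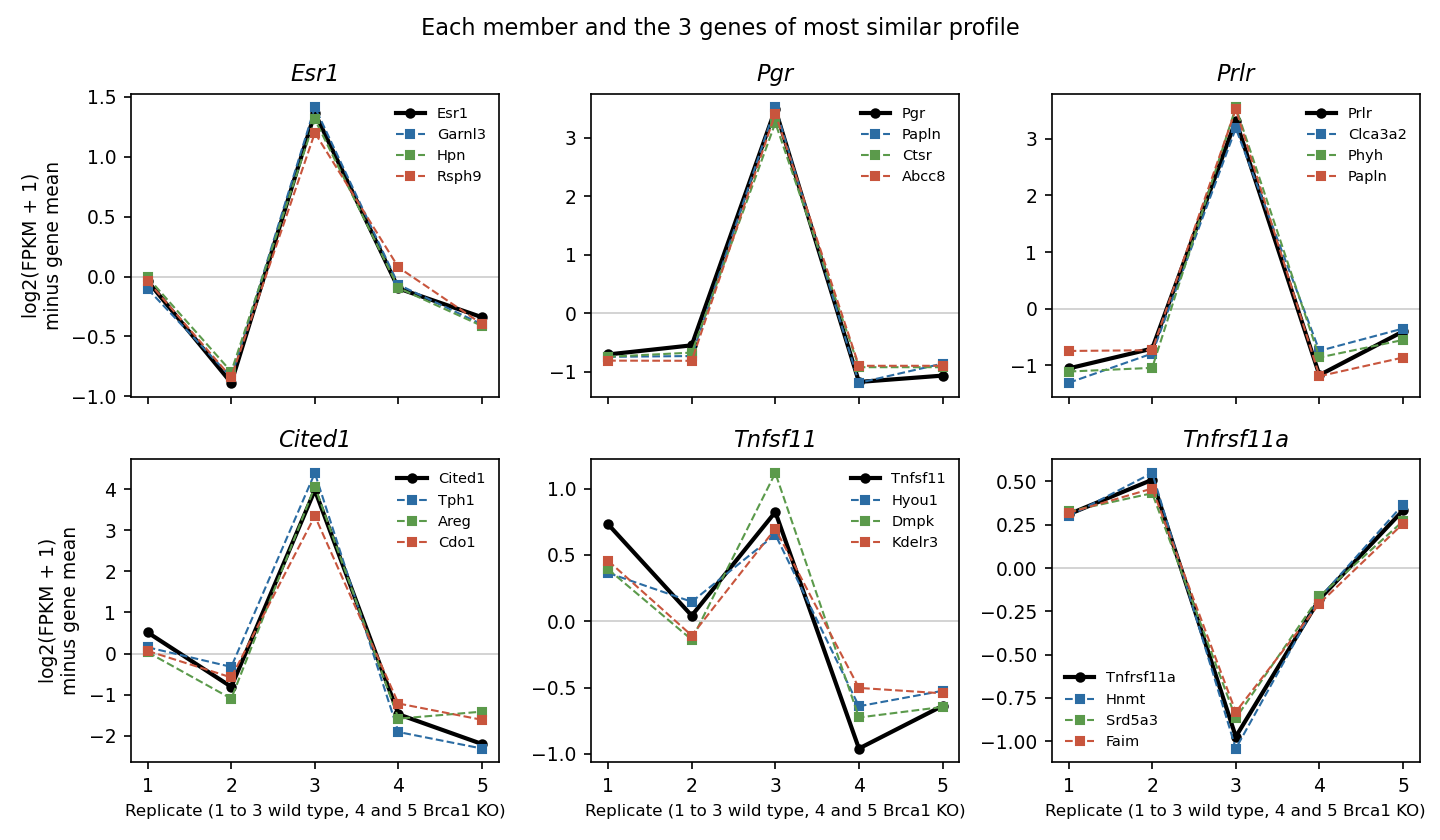
Log2(FPKM + 1) minus the gene mean (vertical axis, scaled separately in each panel) in replicates 1 to 5 for the 6 members with a mean of at least 1 FPKM (black) and the 3 genes of most similar profile (colors); lines join libraries only to guide the eye. *Pgr*, *Prlr* and *Cited1* and their neighbours share the peak at replicate 3, and *Tnfrsf11a* and its neighbours have their low point there.

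Markers of other cells and of cycling cells were measured beside the members. In replicate 3 all 10 proliferation genes were lowest, where 51.8% of genes tested were, with a list median of 0.65 in log2(FPKM + 1) against 3.30 to 4.13 in the other libraries. *Mki67* was at 9.66, 10.7 and 0.504 FPKM in the wild type libraries and at 18.3 and 27.2 FPKM in the knockout libraries. Basal markers had their lowest sum in replicate 3 (13.9 FPKM over 9 genes, against 44.8 to 141 in the other libraries), a sum carried mostly by *Krt14* elsewhere, while their lowest list median was in replicate 5. Fibroblast markers summed over 7 genes to 92.1 FPKM in replicate 3 and to 112 FPKM in replicate 2, with *Dcn* the most abundant on average, and to 3.31, 4.27 and 12.9 FPKM in replicates 1, 4 and 5. Immune markers summed over 7 genes to 29.4, 946 and 250 FPKM in the wild type libraries and to 30.5 and 473 FPKM in the knockout libraries, most of it *Cd74*. The part of these cells in the values of replicate 3 was not tested. By the study's methods, hematopoietic and endothelial cells were depleted before the sort.

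Some markers moved with *Tnfsf11* and *Cited1* between the labels, and proliferation genes moved the other way. All 10 proliferation genes were higher in the knockout libraries, beside 7519 of all 11481 genes tested, and 7 of them were so without overlap (17.5% of genes tested). Their median log2 fold change was 1.45, and 0.75 without replicate 3, and limma called 0. Of 9 basal markers, 2 were higher in the wild type libraries without overlap and 7 were so without replicate 3, counts that include genes below the minimum of 1 FPKM or above it only through the wild type libraries and that are therefore set beside no share of all genes. *Krt14* was at 48.2, 104 and 3.65 FPKM against 27.7 and 45.5 FPKM, and *Acta2*, the smooth muscle actin of myoepithelial cells, at 8.95, 14.4 and 1.93 FPKM against 3.52 and 2.53 FPKM. The basal sum was 75.4, 141 and 13.9 FPKM in the wild type libraries and 44.8 and 67.0 FPKM in the knockout libraries, and the list median in log2(FPKM + 1) was 1.42, 1.74 and 0.56 against 0.64 and 0.40. The 6 fibroblast genes and 5 immune genes tested had lower means in the knockout libraries. Some genes of both lists reached the minimum of 1 FPKM only through wild type libraries, so the filter favoured that direction. The fibroblast genes overlapped between the labels, and wild type replicate 1 had the lowest fibroblast sum. The immune list median in log2(FPKM + 1) was 0.094, 2.57 and 1.88 in the wild type libraries and 0.16 and 0.24 in the knockout libraries. The 5 endothelial markers summed to 0.700, 6.59 and 7.50 FPKM against 0.519 and 0.138 FPKM. The 5 adipocyte markers, mostly *Fabp4*, summed to 4.83, 36.9 and 18.1 FPKM against 2.80 and 2.08 FPKM, with the adipocyte genes *Lep* listed at 0 in each library and *Adipoq* in all but replicate 3. The share of these cells in the differences between the labels was not tested, and the depletion of hematopoietic and endothelial cells came before the sort.

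**Figure D5:**
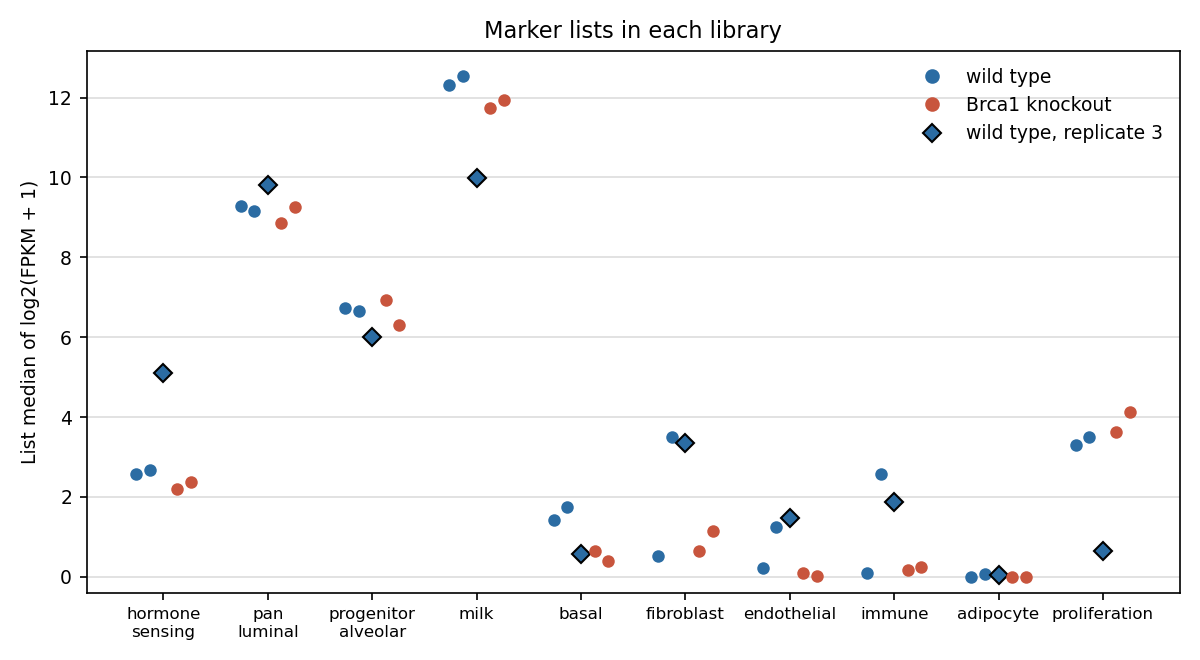
Median of log2(FPKM + 1) over each marker list in each library; blue circles are wild type replicates 1 and 2, diamonds wild type replicate 3, and red circles *Brca1* knockout replicates 4 and 5. Replicate 3 is highest for hormone-sensing markers (5.11) and lowest for proliferation genes (0.65) and milk genes (9.997), while the pan-luminal list stays between 8.86 and 9.80 in all libraries.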

How the data were processed

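RNA from sorted luminal cells was sequenced in 5 libraries. Alignment to mm10 by the authors was with TopHat2, and Cufflinks gave FPKM, and the deposited table holds these FPKM values, 1 column per library, without counts or read totals. The submitters' processing notes name Trimmomatic 0.35, TopHat2 2.0.13 and Cufflinks 2.2.1, and the annotation is not given in the sources used here. Of 24346 rows, 27 with a gene name turned into a date were left out.

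Values were analysed as log2(FPKM + 1). The labels were compared by limma 3.58.1 (lmFit, eBayes with a trend) in R 4.3.3 for genes whose mean reached 1 FPKM, with p-values adjusted by the Benjamini-Hochberg method over 11481 genes and a threshold of 0.05. Depth was estimated from 91 to 149 genes per library with low values and only 1 transcript in GENCODE M21, of more than 3000 bases. Between 53.6% and 57.7% of their values lay within 0.15 fragments of a whole number, where 30% would by chance, so counts were not recovered. The fragment numbers of the members are therefore approximate. They use the estimated depth and the length of the longest coding transcript of the gene, and carry the error of both. Gene coordinates are those of GENCODE M21, and lists were summarised by their median.

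The genes named are the members, *Brca1*, genes of the 7 lists on hormone signaling, at most the 4 most abundant genes of each other list, and the 3 genes nearest in profile to each member with a mean of at least 1 FPKM. *Lep* and *Adipoq* fall outside this rule and are named because they were listed at 0. Some genes of these lists are counted but not reported singly here. The members and lists were chosen with earlier results of these data known. The alternatives were another pseudocount (0.1), other filters, median-of-ratios and quantile scaling, limma without the trend or with array weights, list means for list medians, and each library left out. Python 3.11.15 was used with pandas 2.3.3, numpy 2.4.6 and matplotlib 3.10.9.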

Additional observations from a re-analysis of the deposited data

Results flagged for a closer look

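Over the 5 luminal libraries, taken as 1 group, a gene is given here where its highest or lowest library stood apart from the rest in log2(FPKM + 1) by more than Dixon's 95% critical value. Chance marks about 1 in 20 groups, and 13% of all genes tested were marked. Of 68 genes named and 18 lists, 24 genes and 5 lists were, and all 24 genes were so through wild type replicate 3. This count of genes cannot be read against the 13%. *Pgr*, *Prom1*, *Tbx3*, *Wnt5a*, *Ctsr* and *Abcc8* reached the minimum of 1 FPKM only through replicate 3, so the filter favoured them. *Adipoq* did not reach that minimum. No explanation was tested.

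Among the members, *Pgr* at 27.1 FPKM and *Prlr* at 148 FPKM stood apart on the high side in replicate 3. *Esr1* and *Cited1* were also highest there, at 9.57 and 134 FPKM, but their Dixon's ratios of 0.623 and 0.560 were under the critical value of 0.71. The hormone-sensing markers *Foxa1* (33.6 FPKM), *Areg* (229 FPKM), *Prom1* (56.7 FPKM), *Tbx3* (9.29 FPKM), *Wnt5a* (5.52 FPKM), *Stc2* (137 FPKM) and *Wnt4* (22.0 FPKM) stood apart with *Pgr* and *Prlr*. So did *Rara* (23.1 FPKM), *Jak2* (21.9 FPKM) and *Krt8* (3653 FPKM). The genes chosen for a profile like that of a member follow by that choice, and they were *Papln* (53.3 FPKM), *Ctsr* (17.1 FPKM), *Abcc8* (18.8 FPKM), *Phyh* (197 FPKM) and *Clca3a2* (96.4 FPKM). *Adipoq* was at 0.0296 FPKM in replicate 3 and listed at 0 elsewhere.

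Low in replicate 3 were *Brca1* (0.234 FPKM), *Ccnd1* (30.2 FPKM), *Cited4* (38.2 FPKM), *Csn2* (10569 FPKM), *Elf5* (102 FPKM) and *Rspo1* (8.29 FPKM). The library labelled wild type that had the highest *Pgr* and *Prlr* therefore had the lowest *Brca1*.

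Among list medians in log2(FPKM + 1), replicate 3 stood apart for the hormone-sensing markers (5.11), the estrogen response genes (4.97) and, on the low side, the proliferation genes (0.65). Replicate 2 stood apart for the RANK pathway (4.80, the highest) and for the stress genes (8.03, the lowest, with 8.79 to 9.04 elsewhere).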

How the results depend on the processing

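No member was called under any of the 12 alternatives, and the direction of *Cited1* and *Tnfsf11* held under all 12. *Pgr*, which enters the fit through replicate 3, was not tested without it. Over all genes limma called 0 genes in the main analysis (372 at an unadjusted p under 0.05) and 1 with array weights, and from 0 to 14 with 1 library left out: 2 without replicate 1, 4 without replicate 5 and 14 without replicate 4, none of them a member. A pseudocount of 0.1 moved the log2 fold change of *Pgr* from -1.86 to -3.27 and that of *Brca1* from 0.27 to 0.64. With array weights the log2 fold change reversed for *Brca1* (-0.013), *Esr1* (0.54), *Tnfrsf11a* (-0.38), *Wnt4* (0.11) and *Stc2* (0.12). It shrank by more than 1.5 times for *Cited1* (-3.07 to -1.25), *Pgr* (-1.86 to -0.65), *Prlr* (-1.31 to -0.15), *Areg* (-2.50 to -0.62) and *Foxa1* (-1.48 to -0.22). The values of *Areg* and *Foxa1* were -0.97 and -0.26 without replicate 3. Without replicate 3 the log2 fold change reversed for *Brca1* (-0.029), *Esr1* (0.24), *Prlr* (0.093), *Tnfrsf11a* (-0.33), *Wnt4* (0.17) and *Stc2* (0.35), and without replicate 5 for *Tnfrsf11a* (-0.13). With 1 library left out, the log2 fold change of *Brca1* ranged from -0.029 to 0.43, that of *Esr1* from -0.88 to 0.24, of *Prlr* from -2.09 to 0.093, of *Tnfrsf11a* from -0.33 to 0.41, of *Wnt4* from -0.40 to 0.17 and of *Stc2* from -1.92 to 0.35. The median over the hormone-sensing markers ranged from -1.92 to -0.070, the latter without replicate 3. That median was -0.22 with array weights. Median-of-ratios scaling moved the median log2 fold change of all genes from 0.11 to 0.0099 and quantile scaling to 0.033. The causes were not tested.

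No paired analysis was possible because the labels give the groups no replicate number in common. Leaving out replicate 4 or 5 left 1 knockout library, which is assumed to vary like the wild type libraries. Depth limits *Greb1*, with an estimated 2.01 fragments in replicate 1, and *Pgr* outside replicate 3. The labels and the study's description disagree on the genotype of replicates 1, 2 and 3, and with 3 libraries against 2 the two-sided exact permutation p, taken as the smaller one-sided p times 2, cannot fall below 0.2.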
